A study of Mus musculus with 12 samples.

Results

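The Slc25a genes encode the mitochondrial solute carrier family, the membrane proteins that move nucleotides, phosphate, carboxylates, amino acids, cofactors and metals across the inner mitochondrial membrane. A gene was taken as a member when its symbol begins with Slc25a and a probe set of the array carries that symbol and no other. This gave 45 members among the 22180 genes tested, each read by 1 probe set.

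Adipocytes were grown from inguinal adipose precursor cells of mice with the genotype R26Cre/Prdm16floxEx9 (R26 being the usual short name of the broadly active Rosa26 locus), and RNA was read on 12 Affymetrix arrays. For 3 days of growth, cells were given either ethanol or 1 uM 4-hydroxytamoxifen, which activates inducible forms of Cre recombinase. The differentiation medium of all groups held 20 nM insulin, 1 nM T3, 1 uM dexamethasone, 125 nM indomethacin, 0.5 uM of the phosphodiesterase inhibitor isobutylmethylxanthine and 10% serum. The groups named EtOH and 4OHT had no rosiglitazone, the groups EtOH_Rosi and 4OHT_Rosi had 1 uM of this agonist of the nuclear receptor PPARgamma, and each group had 3 arrays. All 4 groups carry the same genotype, so an effect of 4-hydroxytamoxifen itself and one of the Prdm16 allele cannot be told apart. The labels do not say that Cre is the inducible form. Nor do they say that replicates are separate cultures, so p-values reflect array-to-array spread that could be technical.

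Mitochondrial carriers share a fold of 3 repeats and mostly work by exchange, taking one solute in as another goes out. Through them ADP and phosphate reach ATP synthase, citrate leaves for fatty acid synthesis, and the malate-aspartate shuttle passes reducing equivalents inward. Brown and beige adipocytes are rich in mitochondria, and the uncoupling protein UCP1, which marks them, belongs to the same protein family although its gene has another symbol.

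Values are log2 probe set values as deposited, and a fold change is the difference of group means on that scale. The tested genes had a median of 6.60, and 13 of the 45 members had a mean below it. Prdm16, the floxed gene, read 6.55, 6.49 and 6.84 in EtOH, 6.33, 6.45 and 6.59 in 4OHT, 7.20, 7.46 and 7.44 in EtOH_Rosi and 6.63, 6.70 and 6.63 in 4OHT_Rosi. Its difference between 4OHT_Rosi and EtOH_Rosi was -0.71 ± 0.10 (SE; limma, adjusted p = 0.000646), and between 4OHT and EtOH it was -0.17 (adjusted p = 0.455). The first was -0.39 with the mean of its probe sets, and it was called in all 21 alternatives. It is not known here whether the probe set lies in the floxed exon. Arrays of 1 group correlated at 0.996 to 0.998 across genes, and array 3 of 4OHT_Rosi stood apart on the third principal component, at 16.03 against -8.95 to 7.98 for the others. The 8 adipocyte markers (Adipoq, Fabp4, Plin1 and others) were bright on all arrays, the dimmest, Lipe, having a mean of 10.63.

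Rosiglitazone changed most of the family. After ethanol, 23 of 45 members (51.1%) rose and 8 (17.8%) fell (limma, adjusted p under 0.05 over all genes tested). Of all genes, 14.4% rose and 16.3% fell. In either direction 31 members (68.9%) were called, against 30.7% of all genes. After 4-hydroxytamoxifen 18 (40.0%) rose and 5 (11.1%) fell, against 11.6% and 12.1% of all genes. In either direction these were 23 members (51.1%), against 23.7% of all genes. The 18 risers after 4-hydroxytamoxifen were all among the 23 after ethanol. Thus 18 members (40.0%) rose in both comparisons, and 9.16% of all genes did so. These comparisons share no array, but they share each gene's estimate of spread. Lower in both were 3 members (6.67%), Slc25a24, Slc25a45 and Slc25a12, against 9.70% of all genes. No member rose in one comparison and fell in the other (0.0586% and 0.0271% of all genes, by order). The arrays with and without rosiglitazone did not overlap for 24 members (53.3%) that were higher and 9 (20.0%) that were lower after ethanol. Of all genes these were 19.9% and 20.9%. After 4-hydroxytamoxifen they were 21 (46.7%) and 6 (13.3%) members, against 18.1% and 18.0% of all genes. The 8 falls after ethanol were 5 without array 1 or 2 of EtOH or array 2 of EtOH_Rosi, and the 5 after 4-hydroxytamoxifen were 3 without array 2 of 4OHT or of 4OHT_Rosi. Without array 3 of 4OHT_Rosi, 18 rose and 6 fell after 4-hydroxytamoxifen. The median member difference was 0.18 after ethanol and 0.11 after 4-hydroxytamoxifen, against 0.01 and 0.00 over all genes.

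**Figure D1:**
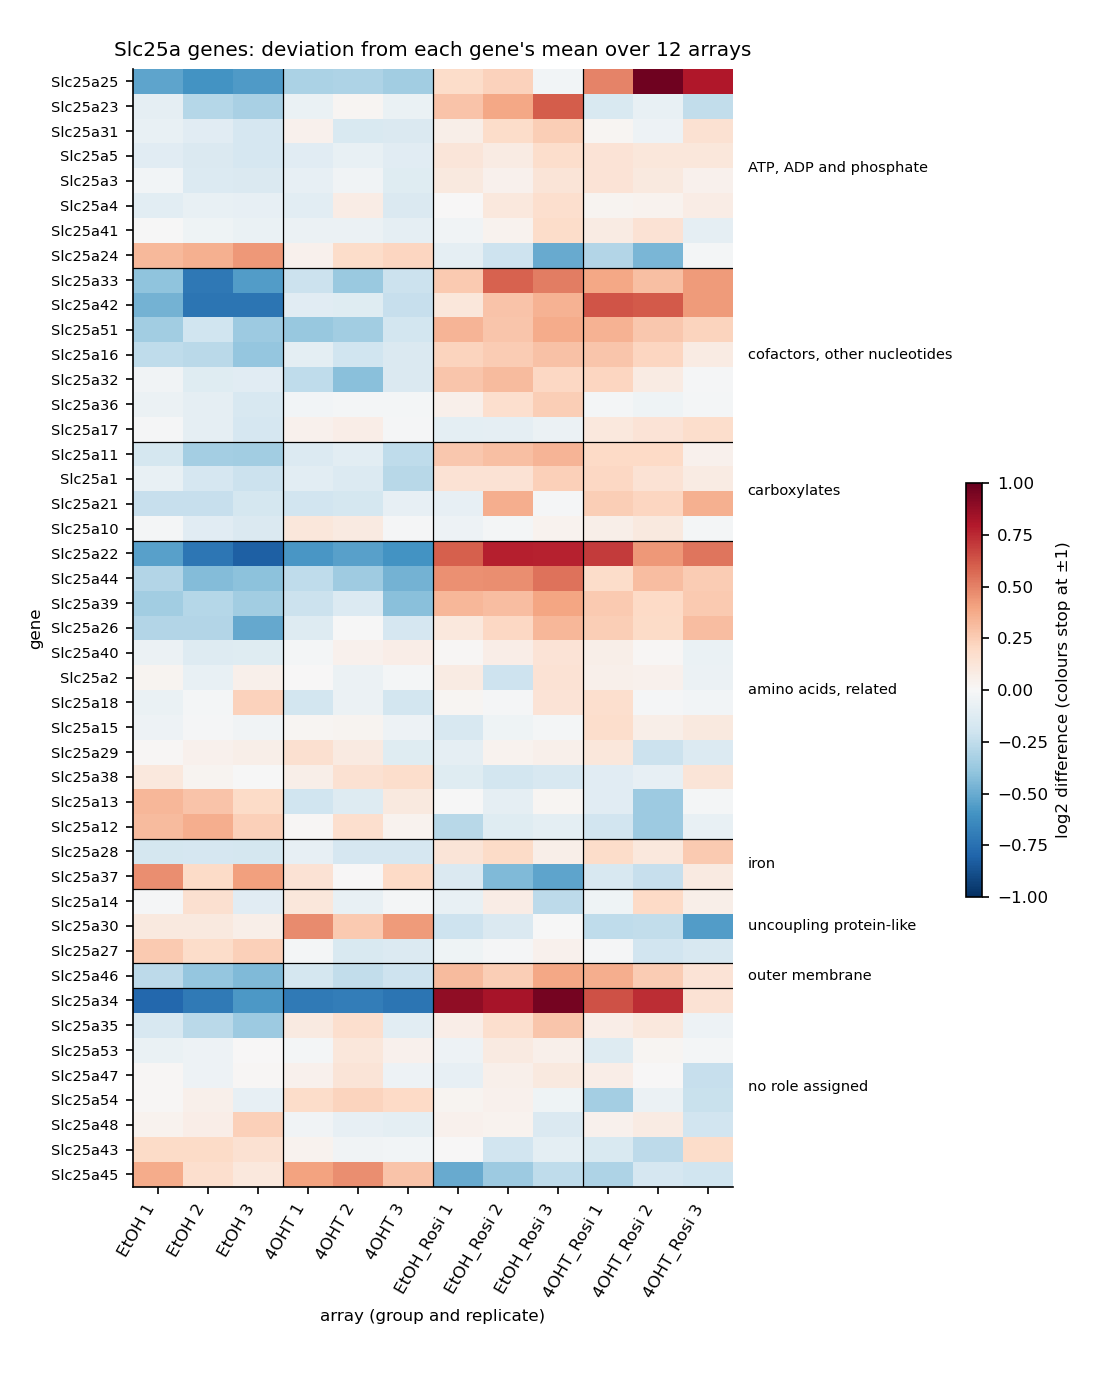
Each row is 1 Slc25a gene, grouped by role, and each column 1 of the 12 arrays; the colour is the gene's log2 value minus its own mean over the 12 arrays. Some of the ATP, cofactor and carboxylate carriers are blue in the 6 arrays without rosiglitazone and red in the 6 with it. These are Slc25a1, Slc25a3, Slc25a5, Slc25a11, Slc25a16, Slc25a33, Slc25a42 and Slc25a51. Slc25a23 is reddest in EtOH_Rosi.

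Markers of other cell types also differed between these groups. The summed linear level of 5 precursor markers was 10800 to 11600 in EtOH, 8480 to 8890 in 4OHT, 4490 to 5030 in EtOH_Rosi and 4030 to 5370 in 4OHT_Rosi. That of 6 leukocyte markers was 7210 to 8010, 6410 to 7100, 5110 to 5590 and 5030 to 5260 in the same order. Of 4 endothelial markers it was 4660 to 5510, 4530 to 4850, 2920 to 3230 and 2840 to 3560, and of 5 smooth muscle markers 9570 to 10800, 9950 to 10300, 4150 to 5730 and 6180 to 8390. After ethanol 4 of 5 precursor, 5 of 6 leukocyte, 4 of 4 endothelial and 5 of 5 smooth muscle markers fell with rosiglitazone. Of all genes 16.3% did. The 4 brown or beige markers summed to 1050 to 1380 in EtOH, 985 to 1230 in 4OHT, 4690 to 5500 in EtOH_Rosi and 2360 to 2860 in 4OHT_Rosi. All 4 rose after ethanol and 3 after 4-hydroxytamoxifen. The 8 adipocyte markers summed to 43400 to 44700 in EtOH, 44600 to 45900 in 4OHT, 49900 to 51200 in EtOH_Rosi and 50100 to 53200 in 4OHT_Rosi. Of these 8, 4 rose and 1 fell after ethanol, where 14.4% and 16.3% of all genes did. After 4-hydroxytamoxifen 3 of the 8 rose and 1 fell, where 11.6% and 12.1% of all genes did. The median differences of the 8 were 0.15 and 0.08. Cidec had the largest, 1.89 and 2.19, so the sums do not show a rise of all 8. The part of these shifts in the carrier results was not tested, and in bulk RNA fewer cells of a type and less RNA per cell cannot be told apart.

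The member that rose most with rosiglitazone was Slc25a34, a carrier to which no substrate is assigned here. It read 6.29, 6.37 and 6.50 in EtOH and 7.96, 7.90 and 8.03 in EtOH_Rosi, and 6.37, 6.38 and 6.34 in 4OHT against 7.71, 7.81 and 7.22 in 4OHT_Rosi. All 6 arrays with rosiglitazone lay above the 6 without, with the lowest of them on the array that stood apart. The rise was 1.58 ± 0.12 (SE) after ethanol (limma, adjusted p = 4.4e-07), which is 2.98-fold, and 1.22 ± 0.12 after 4-hydroxytamoxifen (adjusted p = 5.92e-06), or 1.40 without that array. The difference between EtOH_Rosi and 4OHT_Rosi, -0.38 ± 0.12, did not pass the test (adjusted p = 0.0678). Without array 3 of 4OHT_Rosi it was -0.20 (adjusted p = 0.142), and without array 2 of 4OHT_Rosi it was -0.50 and passed (adjusted p = 0.0251).

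Slc25a22, the mitochondrial glutamate carrier that brings glutamate in with a proton, read 8.64, 8.46 and 8.37 in EtOH and 9.78, 9.96 and 9.95 in EtOH_Rosi. It read 8.60, 8.64 and 8.59 in 4OHT and 9.88, 9.62 and 9.72 in 4OHT_Rosi. No array with rosiglitazone overlapped one without. The rises were 1.41 ± 0.08 (2.65-fold; limma, adjusted p = 6.59e-08) and 1.13 ± 0.08 (2.19-fold; adjusted p = 5.08e-07).

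**Figure D2:**
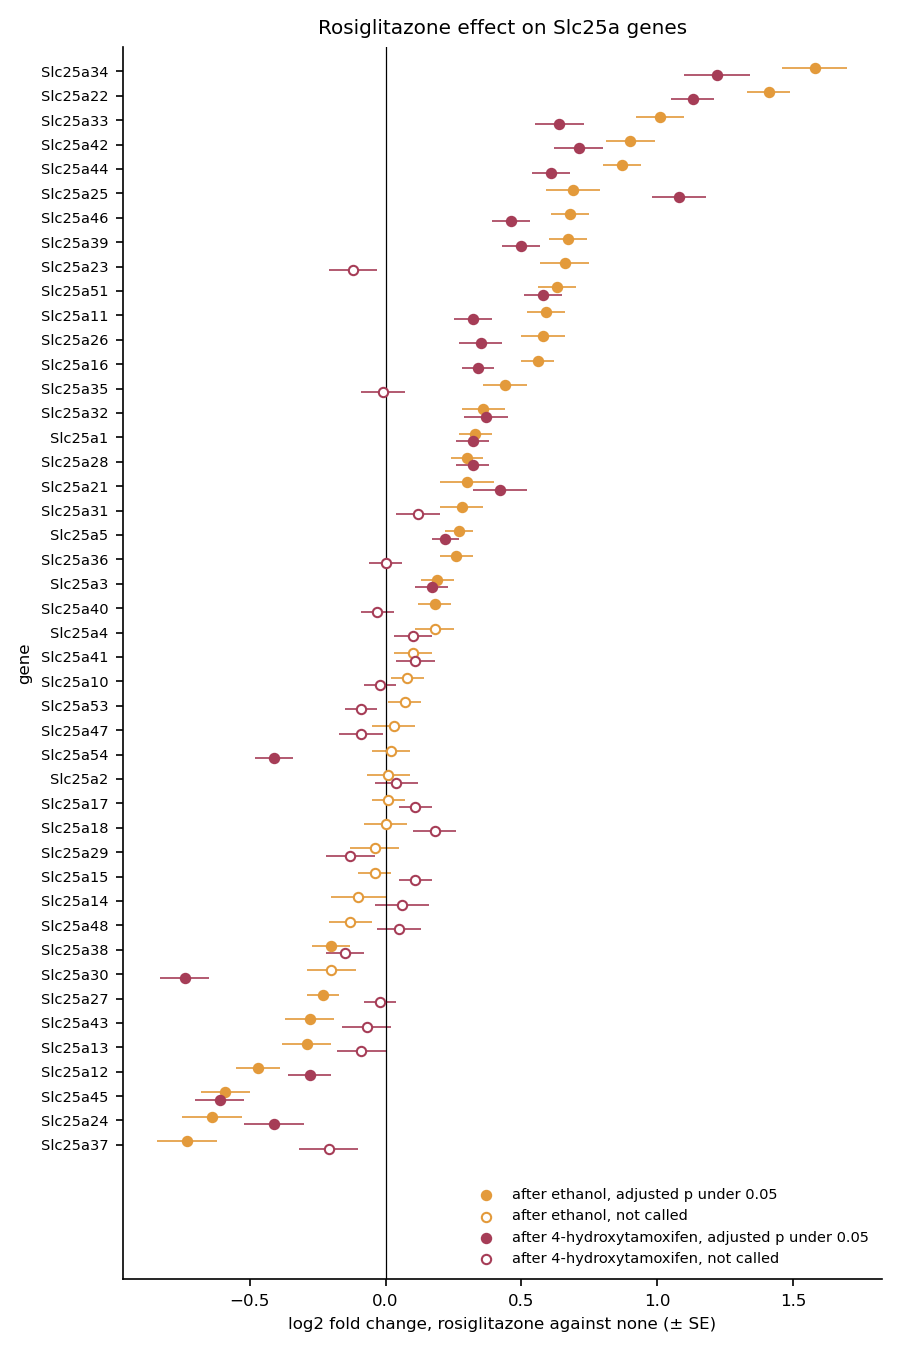
The log2 difference between rosiglitazone and none (± SE) is drawn for all 45 Slc25a genes after ethanol (orange) and after 4-hydroxytamoxifen (dark red); filled points had an adjusted p under 0.05. Slc25a34 and Slc25a22 lie farthest to the right in both. Filled after ethanol alone are Slc25a13, Slc25a23, Slc25a27, Slc25a31, Slc25a35, Slc25a36, Slc25a37, Slc25a38, Slc25a40 and Slc25a43. Of these, only Slc25a23 passed the test of the difference between the effects.

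Among the carriers of ATP, ADP and phosphate, 5 of 8 rose and 1 fell after ethanol, and 3 rose and 1 fell after 4-hydroxytamoxifen. Without array 3 of EtOH_Rosi the first count was 3. The shares of all genes to set beside this and the later role groups are 14.4% and 16.3% after ethanol. After 4-hydroxytamoxifen they are 11.6% and 12.1%. The adenine nucleotide translocases, which exchange ADP for ATP, moved little: Slc25a5 read 12.77, 12.74 and 12.72 in EtOH and 13.01, 12.97 and 13.06 in EtOH_Rosi, a rise of 0.27 ± 0.05 (limma, adjusted p = 0.000826). In 4OHT and 4OHT_Rosi Slc25a5 read 12.77, 12.81 and 12.77 against 13.02, 13 and 13, a rise of 0.22 ± 0.05 (adjusted p = 0.00483). Its paralogue Slc25a4 had differences of 0.18 ± 0.07 (adjusted p = 0.0546) and 0.10 ± 0.07 (adjusted p = 0.317), and neither passed. The first passed in 6 of 21 alternatives (adjusted p = 0.0201 to 0.041), among them without array 2 of 4OHT or array 1 of EtOH_Rosi. Slc25a3, the phosphate carrier that supplies ATP synthase, rose by 0.19 ± 0.06 after ethanol (adjusted p = 0.0199) and by 0.17 ± 0.06 after 4-hydroxytamoxifen (adjusted p = 0.0407). Both calls on Slc25a3 were lost when single arrays were left out, 4 arrays in the first comparison and 7 in the second, with adjusted p of 0.0501 to 0.0773 and 0.0506 to 0.135. Slc25a31, a translocase known from testis, had values of 5.93 to 6.34, below the gene median of 6.60. It rose by 0.28 after ethanol, a call lost without array 3 of EtOH_Rosi (adjusted p = 0.0522). Whether probes of such close paralogues read each other's RNA was not tested.

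The remaining 4 carriers of this group, Slc25a23, Slc25a24, Slc25a25 and Slc25a41, exchange ATP-Mg for phosphate, and calcium regulates the first 3 through EF-hand domains. They differed from one another in direction. Slc25a25 read 7.63, 7.56 and 7.59 in EtOH, 7.84, 7.85 and 7.81 in 4OHT, 8.34, 8.39 and 8.13 in EtOH_Rosi and 8.65, 9.13 and 8.96 in 4OHT_Rosi, so that the 4 groups did not overlap and 4OHT_Rosi was highest. Rosiglitazone raised Slc25a25 by 0.69 ± 0.10 after ethanol (limma, adjusted p = 0.00012) and by 1.08 ± 0.10 after 4-hydroxytamoxifen (2.11-fold; adjusted p = 4.6e-06).

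Slc25a24 ran the other way. It read 9.59, 9.62 and 9.70 in EtOH, 9.31, 9.45 and 9.48 in 4OHT, 9.17, 9.06 and 8.76 in EtOH_Rosi and 8.97, 8.81 and 9.24 in 4OHT_Rosi, and every array with rosiglitazone lay below every array without. It fell by 0.64 ± 0.11 after ethanol (limma, adjusted p = 0.000549) and by 0.41 ± 0.11 after 4-hydroxytamoxifen (adjusted p = 0.0178), the second call being lost without array 2 or 3 of 4OHT or array 1 or 2 of 4OHT_Rosi (adjusted p = 0.0579 to 0.0836). Slc25a41 lay between 5.20 and 5.47 on all arrays and passed in no comparison.

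Slc25a23 was high in 1 group. It read 9.30, 9.11 and 9.07 in EtOH, 9.33, 9.41 and 9.33 in 4OHT, 9.68, 9.78 and 10.00 in EtOH_Rosi and 9.24, 9.32 and 9.15 in 4OHT_Rosi. The EtOH_Rosi arrays lay above the 9 others, and the 4OHT_Rosi arrays overlapped those of EtOH. Rosiglitazone raised Slc25a23 by 0.66 ± 0.09 after ethanol (limma, adjusted p = 4.39e-05), while after 4-hydroxytamoxifen the difference was -0.12 ± 0.09 (adjusted p = 0.383). The difference between these effects was -0.78 ± 0.12 (95% interval -1.04 to -0.52; adjusted p = 0.0122), and its adjusted p was 0.00304 to 0.0426 over the 20 alternatives tried for it. Without array 3 of 4OHT_Rosi it was -0.74 (adjusted p = 0.0331). Slc25a23 was the 1 member (2.22%) to pass this test, where 0.482% of all genes were lower and 0.523% higher (1.01% in either direction). Without array 2 of 4OHT_Rosi 2 members were lower, and without array 1 of 4OHT_Rosi 1 was higher. Prdm16 was also highest in EtOH_Rosi, and for it the same difference did not pass (-0.54 ± 0.14, adjusted p = 0.0954). Without array 1 of EtOH_Rosi that of Prdm16 was -0.63 and passed (adjusted p = 0.0458), and with the mean of its probe sets it was -0.26.

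**Figure D3:**
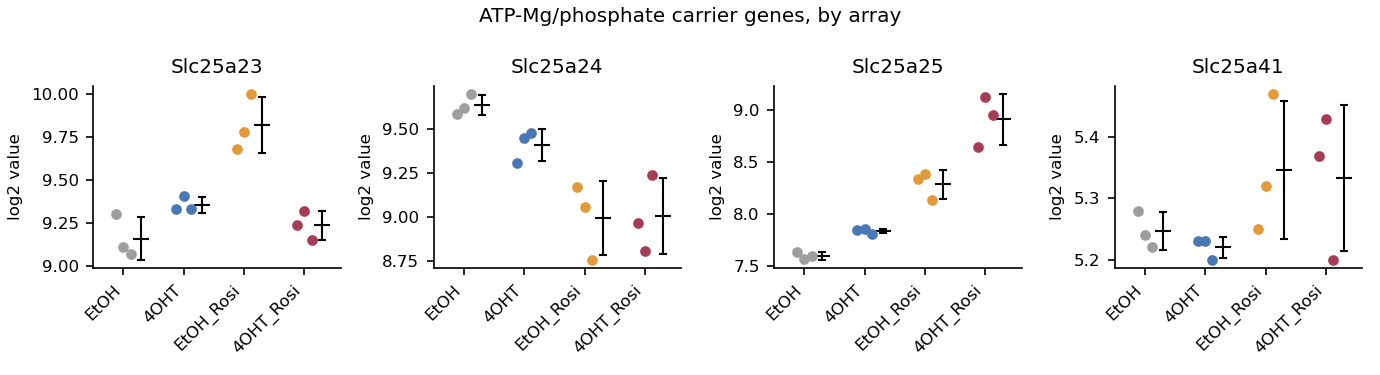
Log2 values of the 4 ATP-Mg/phosphate carrier genes on each array (points) with the group mean ± SD (black; 3 arrays a group); each panel has its own axis, which does not start at 0. The EtOH_Rosi points of Slc25a23 lie at 9.68 to 10.00 above all others, those of Slc25a25 rise to 8.65 to 9.13 in 4OHT_Rosi, and Slc25a24 is lowest in the groups with rosiglitazone.

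Of the 7 carriers of cofactors and other nucleotides, 6 rose after ethanol and 5 after 4-hydroxytamoxifen. Slc25a33, which carries pyrimidine nucleotides into mitochondria, read 7.91, 7.60 and 7.75 in EtOH and 8.57, 8.90 and 8.82 in EtOH_Rosi. In 4OHT and 4OHT_Rosi it read 8.10, 7.94 and 8.10 against 8.70, 8.61 and 8.74. The groups did not overlap in either comparison, and Slc25a33 rose by 1.01 ± 0.09 (2.01-fold; limma, adjusted p = 2.75e-06) and 0.64 ± 0.09 (adjusted p = 0.000215).

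Slc25a42, which brings coenzyme A into the matrix in exchange for adenine nucleotides, read 8.65, 8.39 and 8.39 in EtOH, 9.01, 9.0 and 8.89 in 4OHT, 9.24, 9.41 and 9.47 in EtOH_Rosi and 9.75, 9.74 and 9.55 in 4OHT_Rosi. The groups stood in that order without overlap. Rosiglitazone raised Slc25a42 by 0.90 ± 0.09 after ethanol (limma, adjusted p = 3.92e-06) and by 0.71 ± 0.09 after 4-hydroxytamoxifen (adjusted p = 4.4e-05). Slc25a51, the NAD carrier of mitochondria, read 9.52, 9.67 and 9.51 in EtOH, 9.49, 9.52 and 9.69 in 4OHT, 10.21, 10.15 and 10.24 in EtOH_Rosi and 10.22, 10.14 and 10.09 in 4OHT_Rosi. Its rises of 0.63 ± 0.07 (adjusted p = 1.03e-05) and 0.58 ± 0.07 (adjusted p = 3.44e-05) left all 6 arrays with rosiglitazone above the 6 without.

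Slc25a16 and Slc25a32, the second a carrier of folate and FAD, rose in both comparisons, by 0.56 and 0.36 after ethanol and by 0.34 and 0.37 after 4-hydroxytamoxifen. Slc25a36, like Slc25a33 a pyrimidine nucleotide carrier, rose by 0.26 after ethanol (limma, adjusted p = 0.00367) and had a difference of 0.00 after 4-hydroxytamoxifen. These effects differed by -0.26, which did not pass (limma, adjusted p = 0.167). The member of this group that did not rise was Slc25a17, which is a carrier of peroxisomes and not of mitochondria, with differences of 0.01 and 0.11.

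Of the 4 carboxylate carriers 3 rose in each comparison. Slc25a11, the oxoglutarate-malate carrier of the malate-aspartate shuttle, read 11.44, 11.28 and 11.27 in EtOH, 11.48, 11.51 and 11.36 in 4OHT, 11.89, 11.92 and 11.96 in EtOH_Rosi and 11.82, 11.82 and 11.66 in 4OHT_Rosi. It rose by 0.59 ± 0.07 (limma, adjusted p = 1.62e-05) and 0.32 ± 0.07 (adjusted p = 0.00386). Slc25a1, the citrate carrier that supplies cytosolic acetyl-CoA, rose from 12.55, 12.46 and 12.41 in EtOH to 12.77, 12.77 and 12.86 in EtOH_Rosi, by 0.33 ± 0.06 (adjusted p = 0.00133), and by 0.32 ± 0.06 after 4-hydroxytamoxifen (adjusted p = 0.00245). Slc25a21, the oxodicarboxylate carrier, had values of 5.21 to 5.81, below the gene median of 6.60, and rose by 0.30 and 0.42. The first call was lost without array 1 or 2 of EtOH or array 2 of EtOH_Rosi (adjusted p = 0.072 to 0.095). Without the last of these the difference was 0.16. Slc25a10, the dicarboxylate carrier, had differences of 0.08 (adjusted p = 0.38) and -0.02 (adjusted p = 0.869).

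The carriers of amino acids and related compounds split. Of 12, 5 rose and 3 fell after ethanol, and 4 rose and 1 fell after 4-hydroxytamoxifen. The 3 falls were 1 without array 1 or 2 of EtOH or of EtOH_Rosi. Slc25a44, which transports branched-chain amino acids into mitochondria and is known for this in brown fat, read 9.94, 9.80 and 9.82 in EtOH, 9.98, 9.88 and 9.76 in 4OHT, 10.69, 10.70 and 10.78 in EtOH_Rosi and 10.42, 10.54 and 10.49 in 4OHT_Rosi. All arrays with rosiglitazone were above those without, and Slc25a44 rose by 0.87 ± 0.07 (limma, adjusted p = 6.3e-07) and 0.61 ± 0.07 (adjusted p = 1.95e-05). Slc25a39, a carrier needed for mitochondrial glutathione, rose by 0.67 and 0.50, and Slc25a26, which carries S-adenosylmethionine, by 0.58 and 0.35. Slc25a40, related to Slc25a39, rose by 0.18 after ethanol, a call lost without array 2 or 3 of EtOH or of EtOH_Rosi (adjusted p = 0.0741 to 0.128).

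Both aspartate-glutamate carriers of the malate-aspartate shuttle were lower with rosiglitazone after ethanol. Slc25a12 read 9.30, 9.35 and 9.22 in EtOH and 8.71, 8.86 and 8.89 in EtOH_Rosi, and 9.0, 9.15 and 9.02 in 4OHT against 8.79, 8.62 and 8.91 in 4OHT_Rosi. It fell by 0.47 ± 0.08 (limma, adjusted p = 0.000414) and by 0.28 ± 0.08 (adjusted p = 0.0196), the second being lost without array 2 of 4OHT or of 4OHT_Rosi (adjusted p = 0.0895 and 0.0891). Slc25a13 read 6.31, 6.27 and 6.17 in EtOH and 5.98, 5.89 and 6.0 in EtOH_Rosi, a fall of 0.29 ± 0.09 (adjusted p = 0.0282) that was lost without array 1 or 2 of either group (adjusted p = 0.0524 to 0.0966). Slc25a38, a glycine carrier known for its role in heme synthesis, fell by 0.20 after ethanol, a call lost when any 1 of 7 arrays was left out (adjusted p = 0.0523 to 0.139). Slc25a2 and Slc25a15, carriers of ornithine, Slc25a18, a glutamate carrier, and Slc25a29, a carrier of basic amino acids, passed in no comparison.

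The 2 iron carriers moved apart after ethanol. Slc25a37, mitoferrin 1, read 8.99, 8.72 and 8.94 in EtOH, 8.67, 8.53 and 8.73 in 4OHT, 8.38, 8.09 and 8.0 in EtOH_Rosi and 8.37, 8.30 and 8.62 in 4OHT_Rosi. EtOH_Rosi lay below EtOH without overlap while 4OHT_Rosi overlapped 4OHT, and the differences were -0.73 ± 0.11 (limma, adjusted p = 0.000166) and -0.21 ± 0.11 (adjusted p = 0.205), with 0.51 ± 0.16 between them (adjusted p = 0.149). Slc25a28, mitoferrin 2, rose by 0.30 (adjusted p = 0.00149) and 0.32 (adjusted p = 0.00118).

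**Figure D4:**
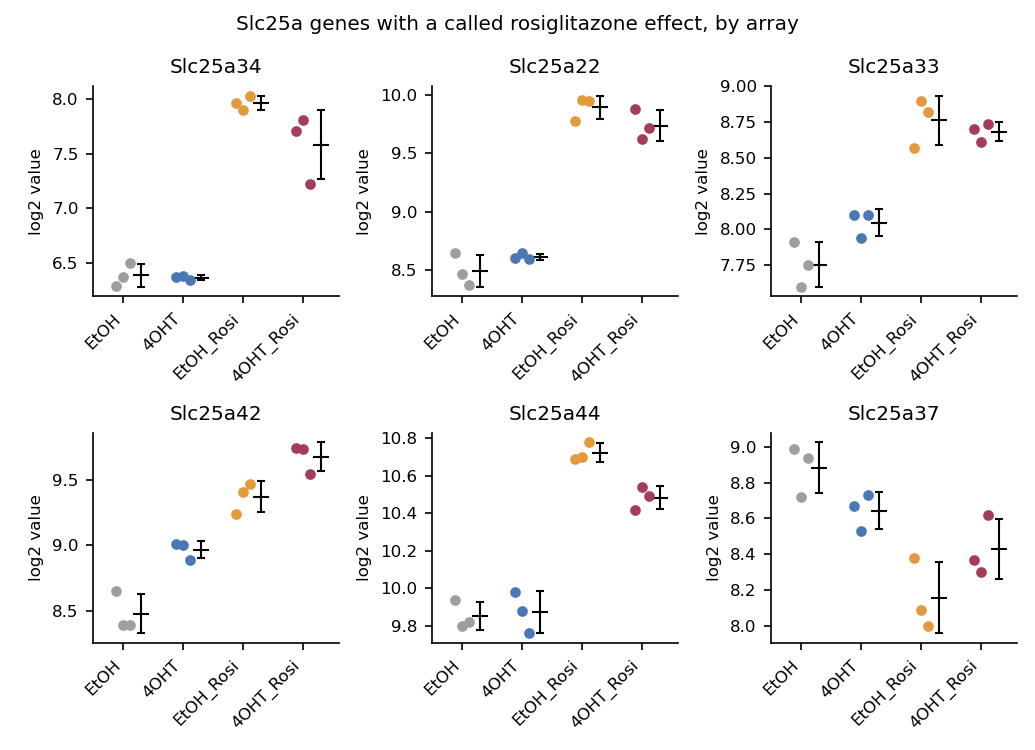
Log2 values of 6 Slc25a genes on each array (points) with the group mean ± SD (black; 3 arrays a group); each panel has its own axis, which does not start at 0. Slc25a34, Slc25a22, Slc25a33, Slc25a42 and Slc25a44 are higher in both groups with rosiglitazone, and Slc25a37 is lowest in EtOH_Rosi, at 8.0 to 8.38.

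Of the 3 genes related to uncoupling proteins, Slc25a30 read 9.80, 9.80 and 9.76 in EtOH, 10.18, 9.97 and 10.13 in 4OHT, 9.50, 9.56 and 9.70 in EtOH_Rosi and 9.45, 9.46 and 9.15 in 4OHT_Rosi. It fell with rosiglitazone after 4-hydroxytamoxifen by 0.74 ± 0.09 (limma, adjusted p = 3.29e-05), where after ethanol its difference was -0.20 ± 0.09 (adjusted p = 0.11). The difference between these effects was -0.54 ± 0.12 and did not pass (adjusted p = 0.0627). It passed with an intensity trend and robust eBayes, with array weights and with each percentile filter (adjusted p = 0.0254 to 0.0497). Without rosiglitazone Slc25a30 was higher in 4OHT than in EtOH by 0.31, which did not pass (adjusted p = 0.0765). That rise passed in some alternatives (adjusted p = 0.0124 to 0.0409). Slc25a27 fell by 0.23 ± 0.06 after ethanol (adjusted p = 0.0125), and Slc25a14 passed in no comparison. Slc25a46, an outer membrane protein involved in mitochondrial shape, rose from 10.40, 10.28 and 10.22 in EtOH to 10.98, 10.91 and 11.05 in EtOH_Rosi, by 0.68 ± 0.07 (adjusted p = 6.55e-06). After 4-hydroxytamoxifen Slc25a46 rose by 0.46 ± 0.07 (adjusted p = 0.000286).

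Of the 8 members given no role here, 2 rose and 2 fell after ethanol, and 1 rose and 2 fell after 4-hydroxytamoxifen. Slc25a45 read 9.0, 8.79 and 8.73 in EtOH, 9.03, 9.09 and 8.91 in 4OHT, 8.12, 8.26 and 8.37 in EtOH_Rosi and 8.32, 8.46 and 8.43 in 4OHT_Rosi. All arrays with rosiglitazone were below those without, and Slc25a45 fell by 0.59 ± 0.09 (limma, adjusted p = 0.000105) and 0.61 ± 0.09 (adjusted p = 0.000133). Slc25a35 rose by 0.44 after ethanol (adjusted p = 0.00104), with -0.01 after 4-hydroxytamoxifen. The difference between the effects on Slc25a35, -0.45, did not pass (limma, adjusted p = 0.104). It passed with an intensity trend and robust eBayes (adjusted p = 0.0475). Slc25a43, with values of 6.0 to 6.46, fell by 0.28 after ethanol (adjusted p = 0.0407), a call lost when any 1 of 8 arrays was left out. Slc25a54, with values of 5.20 to 5.76, fell by 0.41 after 4-hydroxytamoxifen (adjusted p = 0.000686). Slc25a47, Slc25a48 and Slc25a53 passed in no comparison.

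Promoters were examined because 18 members rose together with a PPARgamma agonist. The RefSeq table (GRCm38.p6) held 45 promoters, 250 bases before to 50 after a start, for 35 of the 45 members. Both strands were searched for AGGTCA, the hexamer shared by many nuclear receptors, for its extended form TNAAGGTCA, which contains it, for a direct repeat of AGGNCA with 1 base between the copies, the kind of element PPARgamma binds with RXR, and for GCGCA and GCGC with 1 base between, a site of the mitochondrial gene regulator NRF1. AGGTCA was in 4 of the 45 member promoters, those of Slc25a34, Slc25a39, Slc25a45 and Slc25a47, and in 16.3% of all 32851 promoters. The NRF1 site was in those of Slc25a3 and Slc25a31, against 4.60% of all. TNAAGGTCA and the direct repeat were in no member promoter, against 1.28% and 0.381% of all, which says only that these letters are not in these windows.

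The promoters of the member that rose most, of one that fell in both comparisons, of the phosphate carrier and of the member with unequal rosiglitazone effects are shown, with any motif in capitals. That of Slc25a34 (chr4:141623785-141624084, minus strand) and that of Slc25a45 (chr19:5877572-5877871, plus strand) hold AGGTCA, the first on the opposite strand as TGACCT, starting 119 and 50 bases before the start. That of Slc25a3 (chr10:91123918-91124217, minus strand) holds the NRF1 letters on the opposite strand, 214 bases before the start, and the first of the 2 promoters of Slc25a23 (chr17:57059814-57060113, minus strand) holds none of the motifs.
Slc25a34: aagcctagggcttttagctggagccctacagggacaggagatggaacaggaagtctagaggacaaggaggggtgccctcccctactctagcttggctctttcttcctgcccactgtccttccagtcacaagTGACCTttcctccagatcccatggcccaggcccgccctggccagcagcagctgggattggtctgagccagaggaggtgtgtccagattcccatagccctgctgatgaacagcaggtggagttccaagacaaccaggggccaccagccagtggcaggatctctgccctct
Slc25a45: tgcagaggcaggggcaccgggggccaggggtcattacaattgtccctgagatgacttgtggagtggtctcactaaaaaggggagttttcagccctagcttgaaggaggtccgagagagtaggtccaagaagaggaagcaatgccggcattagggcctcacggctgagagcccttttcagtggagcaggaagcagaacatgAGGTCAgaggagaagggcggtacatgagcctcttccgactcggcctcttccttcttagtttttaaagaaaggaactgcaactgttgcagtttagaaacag
Slc25a3: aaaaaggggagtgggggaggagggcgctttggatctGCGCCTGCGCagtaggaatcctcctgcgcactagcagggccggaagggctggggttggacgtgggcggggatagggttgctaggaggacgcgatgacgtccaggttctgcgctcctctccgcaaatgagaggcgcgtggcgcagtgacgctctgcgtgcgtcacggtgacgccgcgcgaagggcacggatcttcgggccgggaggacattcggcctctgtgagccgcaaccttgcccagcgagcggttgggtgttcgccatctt
Slc25a23: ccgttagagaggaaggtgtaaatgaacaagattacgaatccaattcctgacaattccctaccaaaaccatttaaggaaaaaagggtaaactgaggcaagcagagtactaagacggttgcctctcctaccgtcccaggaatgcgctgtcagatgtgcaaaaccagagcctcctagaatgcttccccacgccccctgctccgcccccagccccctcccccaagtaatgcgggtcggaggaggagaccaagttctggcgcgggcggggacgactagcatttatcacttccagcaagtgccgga
AGGTCA thus stood in the promoter of a gene that rose and of one that fell.

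Few members were called for 4-hydroxytamoxifen, and a member not called is not shown to be unchanged. Without rosiglitazone 1 member (2.22%) rose and 1 (2.22%) fell, where 2.13% and 1.79% of all genes did. In either direction these were 4.44% of members and 3.91% of all genes. With rosiglitazone 3 (6.67%) rose and 2 (4.44%) fell, where 4.65% and 3.38% of all genes did. In either direction these were 11.1% of members and 8.03% of all genes. Slc25a42 rose in both, as 1.16% of all genes did. These comparisons share no array, but they share each gene's estimate of spread. No member fell in both (0.442% of all genes) or moved in opposite directions (0.0225% of all genes for either order). Without rosiglitazone the arrays did not overlap for 13 members (28.9%) that were higher and 7 (15.6%) that were lower in 4OHT. Of all genes these were 11.2% and 11.7%. With rosiglitazone they were 5 (11.1%) and 8 (17.8%) members, against 11.5% and 10.3% of all genes. Without array 3 of 4OHT_Rosi, which enters the estimate of spread, the counts without rosiglitazone were 3 higher and 2 lower. Without array 3 of 4OHT they were 2 and 2, without array 3 of EtOH_Rosi 2 were higher, without array 2 of 4OHT_Rosi 2 were lower, and without array 2 of 4OHT 0 were lower. With rosiglitazone, 1 was higher without array 3 of EtOH_Rosi or array 2 of 4OHT_Rosi. There 1 was lower without array 2 or 3 of EtOH, array 2 of 4OHT, array 2 or 3 of EtOH_Rosi, or array 1 or 3 of 4OHT_Rosi.

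The coenzyme A carrier gene Slc25a42, with the values given above, rose by 0.49 ± 0.09 without rosiglitazone (1.40-fold; limma, adjusted p = 0.00619). With rosiglitazone it rose by 0.31 ± 0.09 (adjusted p = 0.049), a call lost when any of 10 arrays was left out (adjusted p = 0.0531 to 0.159). Slc25a27 read 6.68, 6.60 and 6.66 in EtOH and 6.40, 6.27 and 6.28 in 4OHT, a fall of 0.33 ± 0.06 (adjusted p = 0.00954) that was lost without array 2 of 4OHT (adjusted p = 0.0533). Slc25a13 and Slc25a35 came closest without passing, at -0.35 (adjusted p = 0.0595) and 0.32 (adjusted p = 0.0548), and both passed without array 3 of 4OHT (adjusted p = 0.0318 each).

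With rosiglitazone the ATP-Mg/phosphate carriers Slc25a25 and Slc25a23 moved in opposite directions. Slc25a25 rose by 0.63 ± 0.10 (1.54-fold; limma, adjusted p = 0.00187) and Slc25a23 fell by 0.58 ± 0.09 (adjusted p = 0.001), and in neither gene did 4OHT_Rosi and EtOH_Rosi overlap. Both kept their call in every alternative tried. Without rosiglitazone both differences were positive and neither passed, 0.24 ± 0.10 for Slc25a25 (adjusted p = 0.257) and 0.20 ± 0.09 for Slc25a23 (adjusted p = 0.277). The difference between the effects on Slc25a25 was 0.39 ± 0.14 (adjusted p = 0.234), and without array 1 of 4OHT_Rosi it was 0.52 and passed (adjusted p = 0.0434).

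Slc25a17, the peroxisomal carrier, read 10.79, 10.80 and 10.83 in EtOH_Rosi and 11, 11.03 and 11.07 in 4OHT_Rosi, a rise of 0.23 ± 0.06 (limma, adjusted p = 0.0253). Slc25a44 fell by 0.24 ± 0.07 (adjusted p = 0.047). Leaving out any of 5 arrays ended the call on Slc25a17 (adjusted p = 0.0532 to 0.0782), and any of 9 arrays that on Slc25a44 (adjusted p = 0.0587 to 0.144). Other markers moved between EtOH_Rosi and 4OHT_Rosi too. Of 5 smooth muscle markers, 2 were called higher in 4OHT_Rosi (Cnn1 by 0.91 and Myh11 by 0.53), 4 without array 1 of EtOH_Rosi and 1 without any 1 of 7 other arrays. The endothelial marker Kdr was higher by 0.49 (limma, adjusted p = 0.00366), 1 of 4. The precursor marker Pdgfra (-0.39, 1 of 5) and the leukocyte marker Lyz2 (-0.20, 1 of 6) were lower, calls lost when any 1 of 3 and of 8 arrays was left out. All 4 brown or beige markers fell, from a summed level of 4690 to 5500 to one of 2360 to 2860. Of all genes 4.65% were higher and 3.38% lower in 4OHT_Rosi than in EtOH_Rosi. The part of these markers in the carrier results was not tested.

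**Figure D5:**
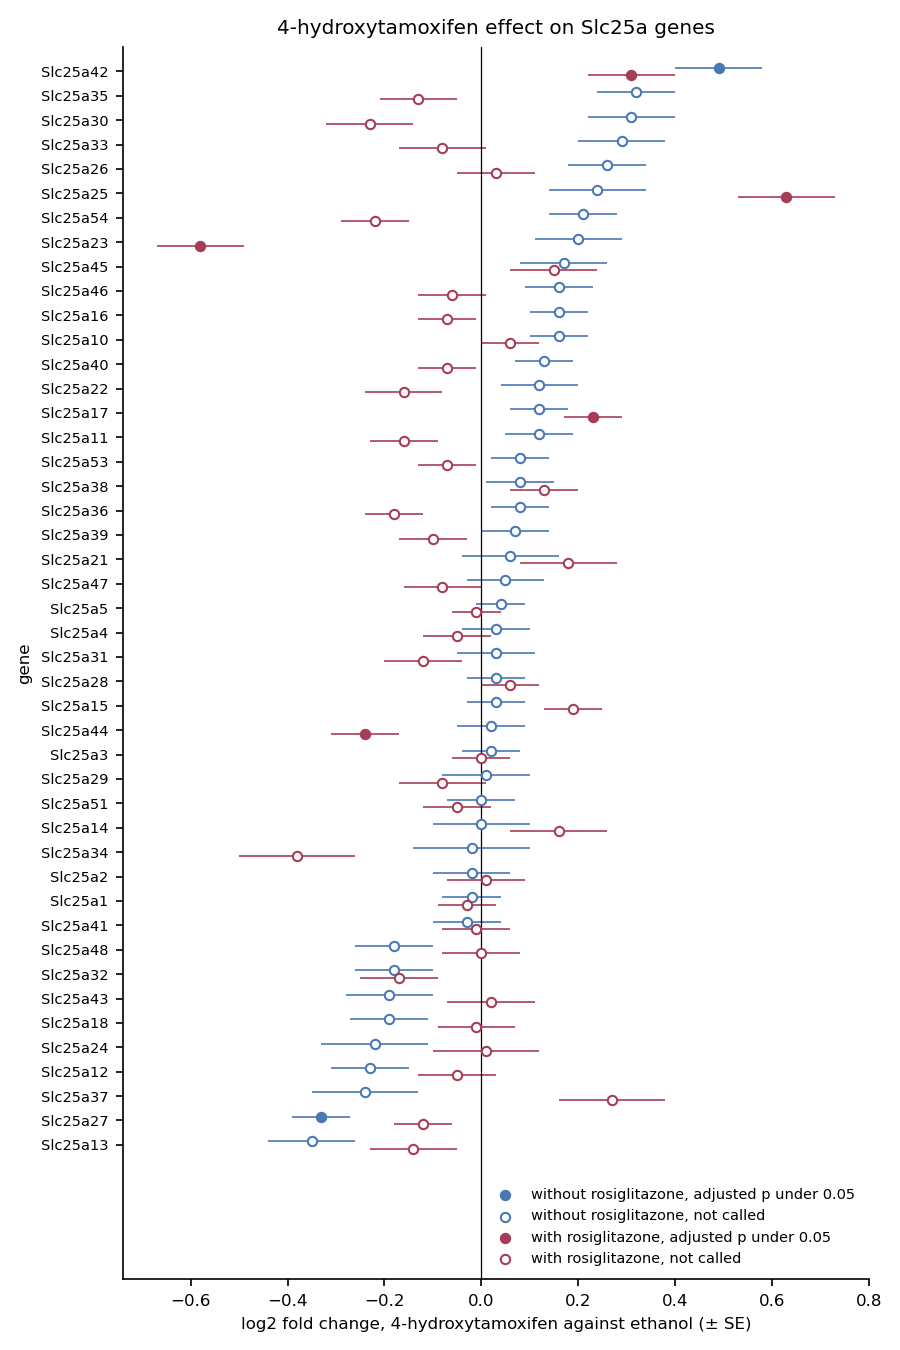
The log2 difference between 4-hydroxytamoxifen and ethanol (± SE) is drawn for all 45 Slc25a genes without rosiglitazone (blue) and with it (dark red); filled points had an adjusted p under 0.05. Slc25a42 is filled in both, at 0.49 and 0.31, Slc25a25 and Slc25a23 stand apart on opposite sides with rosiglitazone, and most other points lie near 0.

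The other genes of mitochondrial transport gave the following counts. For comparison, 14.4% of all genes rose and 16.3% fell after ethanol, and 11.6% and 12.1% did after 4-hydroxytamoxifen. Of 14 measured genes of the route that imports carrier proteins (the TOM receptors and pore, the small TIM chaperones and the TIM22 complex), 13 rose after ethanol and 10 after 4-hydroxytamoxifen, with medians of 0.45 and 0.41. Timm9, a chaperone of the intermembrane space, rose by 0.84 ± 0.07 (limma, adjusted p = 7.84e-07) and 1.14 ± 0.07 (adjusted p = 7.62e-08), and Timm22, the channel that inserts carriers, by 0.66 and 0.70. Timm10b, chosen after its value was seen, fell by 0.25 after 4-hydroxytamoxifen, a call lost when any 1 of 7 arrays was left out.

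Of 24 other measured mitochondrial transport genes, 16 rose and 3 fell after ethanol and 11 rose and 3 fell after 4-hydroxytamoxifen. Letm1, a cation-proton exchanger, rose by 0.95 and 0.71, and Mpc1, a subunit of the pyruvate carrier, by 0.62 and 0.58. Ucp1 rose by 2.14 and 0.48. Of 18 measured enzymes of the malate-aspartate and glycerol phosphate shuttles and of citrate use, 11 rose and 1 fell after ethanol, and 9 rose and 2 fell after 4-hydroxytamoxifen. Gpd1, the cytosolic glycerol-3-phosphate dehydrogenase, rose by 1.12 and 1.17.

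Gpd2, the calcium-activated mitochondrial partner of Gpd1, had a pattern like that of Slc25a23. It read 8.62, 8.46 and 8.41 in EtOH, 8.72, 8.67 and 8.76 in 4OHT, 9.06, 9.18 and 9.22 in EtOH_Rosi and 8.79, 8.80 and 8.53 in 4OHT_Rosi. The EtOH_Rosi arrays lay above all 9 others. With rosiglitazone, Gpd2 fell by 0.45 ± 0.08 after 4-hydroxytamoxifen (limma, adjusted p = 0.00432). It was 1 of 5 among the 18 enzymes to fall there, where 3.38% of all genes did. The 5 were 2 or 3 without array 1 or 2 of 4OHT_Rosi or any array of EtOH_Rosi. For Gpd2 the difference between the rosiglitazone effects was -0.67 ± 0.12 (adjusted p = 0.0213). That call was lost without array 1 or 3 of 4OHT, array 2 or 3 of EtOH or array 2 of EtOH_Rosi. For Ucp1 the difference between the rosiglitazone effects was -1.65 ± 0.19 (adjusted p = 0.00591).

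Of 69 nuclear subunits of oxidative phosphorylation, the respiratory chain and ATP synthase that the carriers serve, 64 rose after ethanol and 53 after 4-hydroxytamoxifen. Of all genes 14.4% and 11.6% did so. Their medians were 0.55 and 0.35. For 4-hydroxytamoxifen the differences of 61 of the 69 were positive without rosiglitazone, and those of 60 were negative with it. Over all 22180 genes these were 11098 and 11644. The difference between the rosiglitazone effects was negative for 64 of the 69, and for 11334 of all genes. Few of these subunits were called: 3 higher, 2 lower and 1 lower in that order. Of all genes 2.13%, 3.38% and 0.482% were. The 3 were 0 without any 1 array of 4OHT, and so was the 1 lower. The 2 were 7 without array 1 of EtOH_Rosi and 0 without its array 2 or 3. This list leaves out Cox8b and Cox7a1, which are counted among the brown or beige markers.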

How the data were processed

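The values are log2 probe set values with 2 decimals, deposited by the authors in 1 table of 41345 probe sets by 12 arrays. They were made with Affymetrix Expression Console, per the submitters' processing notes. Version, summary step and between-array scaling: not given in the sources used here. Of 23521 probe sets with 1 gene symbol, 23328 were matched to RefSeq genes by Entrez ID. Of several probe sets of a gene the one with the highest mean was kept, which left 22180 genes, with no filter on dim ones. The number of arrays per group limits the precision.

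limma 3.58.1 (R 4.3.3) was fitted to all 12 arrays with 1 mean per group and eBayes (degrees of freedom: 8 residual, 5.07 prior). P-values of each of the 5 contrasts were adjusted by Benjamini-Hochberg over all genes and called at an adjusted p under 0.05. Figures were drawn with matplotlib 3.10.9.

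Members, role groups, lists, tests and the naming rule were chosen with earlier results of these data known. The rule names up to 6 rises and 6 falls per comparison of 2 groups, called members of the interaction, a panel of 16 members and up to 2 genes per other list. Members outside it were named after their values were seen, to account for the family. No value is given for 1 further gene of the family.

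Results were recomputed without each array in turn, with filters at the 25th or 50th percentile of mean level, after median centring or quantile normalization, with array weights, with the mean over a gene's probe sets, with robust eBayes and an intensity trend, from the 2 groups compared alone, and with replicate number as a block. Role group counts without each array were an addition made after the data were seen. On simulated data with 200 changed genes of 22180, a change of 1 log2 was recovered for 98% to 100% of genes in comparisons of 2 groups and 92% in the interaction, and one of 0.5 log2 for 70% to 80% and 44%. Of the simulated calls, 7.25% and 7.69% were false for 4-hydroxytamoxifen without and with rosiglitazone, and 2.16% to 3.78% in the other contrasts. The simulated noise was independent between genes, and in the data up to 6814 genes were called.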

Additional observations from a re-analysis of the deposited data

Results flagged for a closer look

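Slc25a23, an ATP-Mg/phosphate carrier gene, differed between the rosiglitazone effects after 4-hydroxytamoxifen and after ethanol by -0.78 ± 0.12 on the log2 scale (SE; limma, adjusted p = 0.0122), tested as an interaction. Rosiglitazone raised it by 0.66 after ethanol, in 3 of 3 arrays above all arrays of EtOH, and its difference after 4-hydroxytamoxifen was -0.12.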

How the results depend on the processing

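The counts of members called for 4-hydroxytamoxifen depend on the setting. Without rosiglitazone, 1 member higher became 3 in the 2-group fit, 3 with trend and robust eBayes, 6 with array weights, 2 with median centring and 2 and 4 with the 25th and 50th percentile filters, and 1 lower became 2 in the 2-group fit, 3 with weights, and 2 and 0 with those filters. With rosiglitazone, 3 higher became 1 with the replicate block and 1 in the 2-group fit, and 2 lower became 1 with the block, the 2-group fit, weights and centring, and 4 with the 50th percentile filter. For rosiglitazone after ethanol, 8 lower became 5 with centring and 5 with the 50th percentile filter, and the median of 0.18 became 0.312 with that filter; after 4-hydroxytamoxifen the median of 0.11 became 0.198. In the interaction, 1 lower became 3 with trend and 2 with weights and each filter, and the median became -0.113 with the 50th percentile filter. That filter and the 25th leave fewer genes tested. The 50th percentile filter leaves out the 13 members with a mean below the gene median. Its counts and medians cover only the members left. Slc25a13, Slc25a27 and Slc25a43 are among the 13, so their falls were not tested there and did not fail. For the other settings the cause was not tested.

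Without 1 array, members higher and lower were 1 to 3 and 0 to 2 for 4-hydroxytamoxifen without rosiglitazone (median 0.033 to 0.073), 1 to 3 and 1 to 3 with it (-0.063 to -0.02), 20 to 24 and 5 to 9 for rosiglitazone after ethanol (0.143 to 0.208), 17 to 18 and 3 to 6 after 4-hydroxytamoxifen (0.088 to 0.118), and 0 to 1 and 1 to 2 in the interaction (-0.083 to -0.03). Of the 31 members called for rosiglitazone after ethanol 24 kept their call without each array and in all other alternatives that tested them, and of the 23 after 4-hydroxytamoxifen 20 did. No called direction reversed. Same-numbered arrays correlated at -0.24 to 0.0786 in their deviations from the group means over 18 pairs, 0 over 0.1. A pair with unlike numbers reached 0.316. No shared signal by number was seen, but with 3 arrays a group this cannot show that same-numbered arrays were made apart. Under the replicate block the calls on Slc25a42, Slc25a17 and Slc25a44 with rosiglitazone were lost (limma, adjusted p = 0.0757, 0.0558 and 0.0842).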
